A study of Homo sapiens with 9 samples.

Results

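The mitosis genes described here are 40 genes, listed by symbol, that drive the entry of a cell into division, build the spindle, attach and separate the chromosomes, and divide the cell. The rule uses gene names and no measured value, although the list was chosen with earlier results of these data known. All probe sets that carried a single one of these symbols were taken, which gave 78 probe sets. The genes are 40 of 19775 named genes on the array, and all 40 passed the filter on low values (6 or more on the log2 scale on at least 3 arrays), with 64 of their probe sets. Each of the 40 was at 6 or more on all 9 arrays. Across the 9 arrays, the members lay between 6.27 and 12.28 on the log2 scale.

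RNA was compared between 3 human breast cancer cell lines on Affymetrix Human Genome U133 Plus 2.0 arrays. MDA-MB-231/GFP/Neo (MDA231 in the labels and below) is an ER negative line that resists G418 and was used as a single clone carrying green fluorescent protein (GFP). ZR-75-1/GFP/puro (ZR75 below) is an ER positive line with GFP, and its puromycin-resistant cells were used as a pool. B6TC is GFP positive and estrogen-independent, and the labels describe it as a fusion of the other two lines. It was derived from fluorescent cells recovered from mouse bone marrow, passed through a tumor in a nude mouse, and returned to culture. All 3 lines were grown in the same serum-containing medium and the RNA was taken from near confluent cultures. There were 3 arrays per line, which the labels call technical replicates, so the p-values below measure the spread between hybridizations and not between cultures.

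A cell enters mitosis when CDK1, bound to cyclin B and freed of its inhibitory phosphates by CDC25 phosphatases, becomes active. Aurora and Polo-like kinases then mature the centrosomes and the spindle, and the checkpoint proteins at the kinetochores hold back the anaphase-promoting complex until every chromosome is attached. Cyclin B and securin are then destroyed, separase cuts cohesin, and the contractile ring closes. Many of these genes are transcribed late in the cell cycle under the control of the MuvB complex, B-MYB, FOXM1 and the CCAAT-binding factor NF-Y, and they are widely used as a measure of proliferation in breast tumors. A lower value in a culture cannot tell fewer dividing cells from less RNA per dividing cell.

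The median value of an array was between 4.89 and 4.96, and 33.8% to 34.7% of the probe sets on an array were at 6 or more. ESR1, the estrogen receptor gene, was at a mean of 3.76 in B6TC, 3.31 in MDA231 and 10.16 in ZR75, and CDH1, which encodes E-cadherin, was at 4.51, 3.56 and 12.00 in the same order. Of 6 luminal markers, 3, 3 and 6 were at 6 or more, and of 5 mesenchymal markers, 5, 4 and 1. PTPRC, CD3E, CD14 and ITGAM, which mark leukocytes, were below 6 in each line, and of 4 endothelial markers PECAM1 reached 6.68 in B6TC and 6.69 in MDA231. The excess of the 3′ over the 5′ probe set of a gene rises as RNA integrity falls. For ACTB it was 0.67 on each B6TC array, 0.28 to 0.34 on the MDA231 arrays and 0.69 to 0.77 on the ZR75 arrays. For GAPDH this excess was 0.28 to 0.32 in B6TC, 0.03 to 0.10 in MDA231 and 0.18 to 0.23 in ZR75. MDA231 was thus the lowest line in both measures, and their part in the differences of the mitosis genes from MDA231 was not tested.

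Besides their function, many of the mitosis genes shared short sequences near their transcription starts. In the RefSeq promoter table (GRCh38.p14), 32 of the 40 members had at least 1 entry, and with alternative starts there were 42 windows of 300 bases, from 250 bases before the start to 50 after it. FOXM1, AURKA, TPX2, BUB3, TTK, BIRC5, UBE2C and RACGAP1 had no entry. The letters TTTGAA, the cell cycle genes homology region (CHR) that the MuvB complex contacts, were found on either strand in 25 of the 42 windows (59.5%). The same letters were in 10.6% of 13083 windows of all tested genes and in 15.2% of all 35116 windows. CCAAT, the letters bound by NF-Y, were in 31 of the 42 windows (73.8%), against 35.1% and 34.6%. Both motifs were together in 20 windows (47.6%), against 4.26% and 5.9%, and in no window of a member did a CCAAT match share a base with a CHR match. Counted by gene, 22 of the 32 members (68.8%) held CHR in at least 1 window, against 14% of 8867 tested genes. For CCAAT these values were 26 (81.2%) and 43.9%. The lists given further on, of other mitosis genes and upstream regulators, gave 165 windows of 124 genes. These windows held CHR in 36.4%, CCAAT in 50.9% and both in 21.8%. In the windows of 39 DNA replication genes, which are transcribed earlier in the cycle, CHR was in 1 of 50 and CCAAT in 29 of 50. Windows of the same gene can overlap, and only the exact letters were searched for, so variants of a motif were not counted. A match is a run of letters and not a measured binding site.

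The 6 windows printed here belong to members that stood for different patterns among the lines. PLK1 was highest in MDA231, CCNB2, PRC1 and CENPA were lowest in B6TC, KIF4A lay between the parental lines in B6TC, and NUF2 was highest in B6TC. They run 5′ to 3′ along the gene from 220 bases before the start to 30 after it, and capitals mark CCAAT and TTTGAA on either strand (ATTGG and TTCAAA when read from the other strand). The coordinates are chr16:23678669-23678918 for PLK1, chr15:59104926-59105175 for CCNB2, chr2:26785836-26786085 for CENPA, chrX:70289884-70290133 for KIF4A and chr1:163321734-163321983 for NUF2, all on the plus strand, and chr15:90994506-90994755 on the minus strand for PRC1.
PLK1: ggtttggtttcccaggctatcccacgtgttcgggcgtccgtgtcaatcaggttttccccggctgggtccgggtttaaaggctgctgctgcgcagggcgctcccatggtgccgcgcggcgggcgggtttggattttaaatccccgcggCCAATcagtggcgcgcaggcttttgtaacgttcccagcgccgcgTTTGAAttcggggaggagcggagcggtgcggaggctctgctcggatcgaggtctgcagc
CCNB2: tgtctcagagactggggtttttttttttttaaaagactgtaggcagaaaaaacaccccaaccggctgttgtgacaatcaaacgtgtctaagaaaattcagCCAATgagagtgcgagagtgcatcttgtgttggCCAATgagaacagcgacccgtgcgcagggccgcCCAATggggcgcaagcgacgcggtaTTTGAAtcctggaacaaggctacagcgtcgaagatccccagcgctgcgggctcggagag
PRC1: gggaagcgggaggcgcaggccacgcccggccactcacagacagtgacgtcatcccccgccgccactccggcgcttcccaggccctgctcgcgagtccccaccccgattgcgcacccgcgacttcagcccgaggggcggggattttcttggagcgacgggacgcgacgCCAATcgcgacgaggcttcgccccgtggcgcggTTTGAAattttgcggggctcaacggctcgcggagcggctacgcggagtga
CENPA: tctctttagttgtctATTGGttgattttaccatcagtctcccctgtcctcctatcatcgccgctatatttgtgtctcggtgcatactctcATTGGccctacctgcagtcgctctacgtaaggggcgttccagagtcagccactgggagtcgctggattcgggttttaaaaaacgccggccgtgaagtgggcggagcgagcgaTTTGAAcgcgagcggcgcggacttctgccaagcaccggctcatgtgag
KIF4A: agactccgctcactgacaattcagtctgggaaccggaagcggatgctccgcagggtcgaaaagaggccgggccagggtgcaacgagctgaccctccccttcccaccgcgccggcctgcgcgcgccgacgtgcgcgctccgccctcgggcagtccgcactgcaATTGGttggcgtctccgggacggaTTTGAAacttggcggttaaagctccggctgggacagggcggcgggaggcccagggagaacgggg
NUF2: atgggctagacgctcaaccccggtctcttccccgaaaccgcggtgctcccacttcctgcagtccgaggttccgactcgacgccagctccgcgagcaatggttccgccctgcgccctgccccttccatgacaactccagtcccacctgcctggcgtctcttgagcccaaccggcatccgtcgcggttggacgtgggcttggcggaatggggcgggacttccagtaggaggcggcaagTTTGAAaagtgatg
The CHR of PLK1 and that of CCNB2 each began 29 bases before the start, those of PRC1, CENPA and KIF4A 20, 18 and 34 bases before it. In CCNB2 3 CCAAT boxes preceded it, at 120, 87 and 54 bases before the start, and another lay at 244, outside the printed stretch. NUF2 had no CCAAT in its window, and its CHR began 17 bases after the start. CHR was present in at least 1 window of 7 of the 8 members that were higher in B6TC than in MDA231. The same held for 14 of the 21 that were lower and had a window. Members with and without the exact letters TTTGAA were thus found in both directions.

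**Figure D1:**
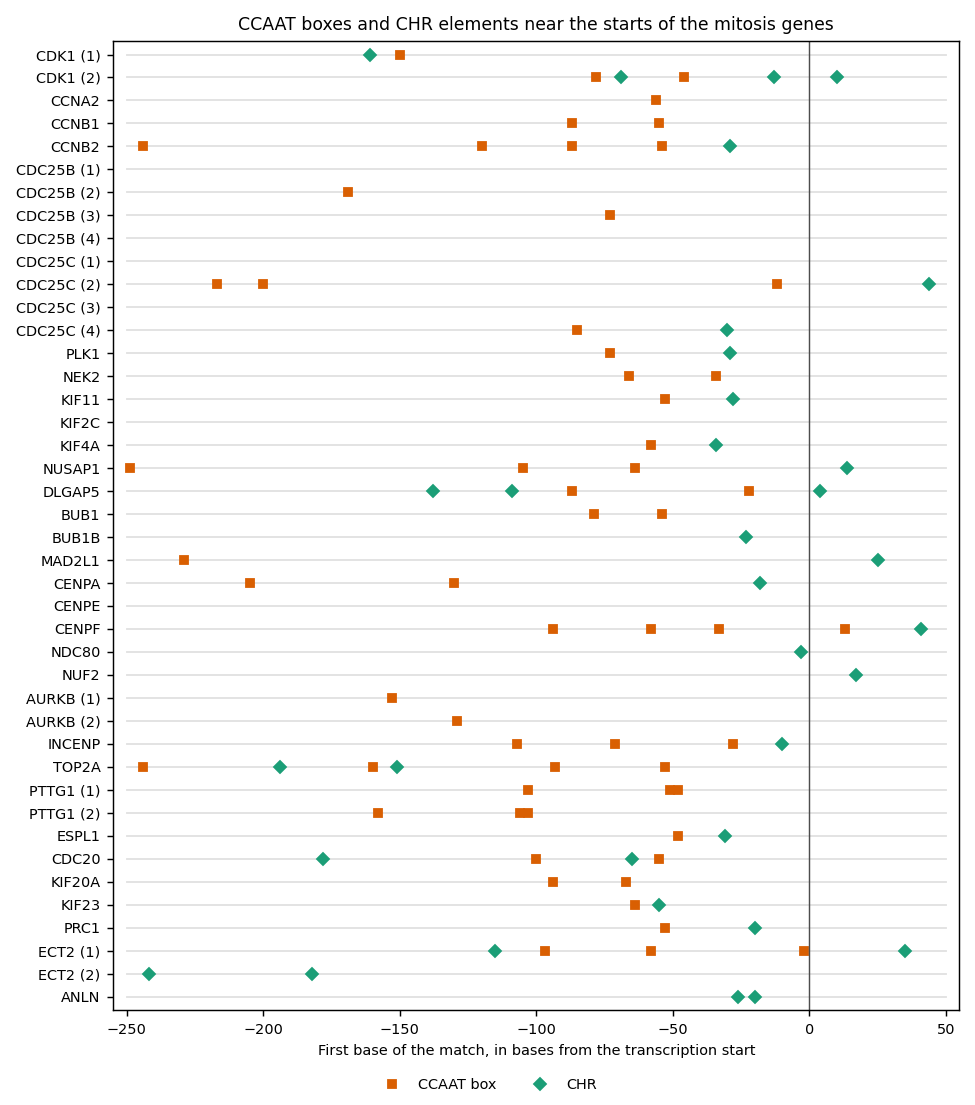
Positions of the CCAAT boxes (squares) and CHR elements (diamonds) in the 42 promoter windows of the mitosis genes; the x axis is the distance of the first base of each match from the transcription start in bases, and numbers in parentheses mark alternative starts. Of 34 CHR matches 17 began within 100 bases before the start, as did 39 of 60 CCAAT matches.

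Each gene was represented by the tested probe set with its highest mean, and the lines were compared with limma over all tested probe sets, where a difference was called if its p, adjusted by Benjamini and Hochberg, was at most 0.05. More mitosis genes were lower than higher in B6TC relative to MDA231. Of the 40 members, 25 were lower, 8 were higher and 7 were not called, with a median log2 difference of -0.20. Of all 10751 tested genes, 28.5% were lower and 36.5% were higher in this comparison, with a median of 0.04. Relative to ZR75, 15 members were higher in B6TC, 12 were lower and 13 were not called, with a median of 0.05, where 42.8% of all tested genes were higher and 41.6% were lower. Between the parental lines, 22 members were higher in MDA231, 8 were lower and 10 were not called, with a median of 0.16, against 42.5% and 41.9% of all tested genes. These comparisons share arrays pair by pair and are therefore not independent of each other.

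Read by the probe set with the highest mean, few mitosis genes differed by 2-fold. Between B6TC and MDA231 this also held for all tested genes. At an adjusted p of 0.05 or less and a fold of at least 2, CDC25B was the only member called between B6TC and MDA231, where 3.75% of the tested genes passed both limits. CDC25B was also the only member so called against ZR75, where 31.6% of the tested genes passed. KIF4A, PTTG1 and NDC80 passed between the parental lines, where 31.9% of the tested genes did. Further probe sets of other members also passed both limits, that of ANLN between B6TC and MDA231 (-1.03), that of BIRC5 between B6TC and ZR75 (-1.75), and those of BUB1 (1.04), BUB3 (1.08), BIRC5 (1.05 and -2.48) and ANLN (1.18) between the parental lines. The median absolute log2 difference of the members was 0.32 between B6TC and MDA231, 0.29 between B6TC and ZR75 and 0.28 between the parental lines. Over all tested genes it was 0.25, 0.61 and 0.61. The filter also passed genes that were below 6 in a line, such as CDH1 at 3.56 in MDA231 and 12.00 in ZR75. All 40 members were at 6 or more on every array, and the part of this unlikeness in these values was not tested. The members were within 0.5 of ZR75 in 30 of 40 cases (75%), as were 43.7% of all tested genes, and within 0.5 of MDA231 in 34 of 40 cases (85%), as were 78.1%. Averaged over the 40 members, the arrays were at 9.80, 9.81 and 9.79 in B6TC, 10.01, 9.95 and 9.95 in MDA231 and 9.77, 9.80 and 9.78 in ZR75. The MDA231 arrays lay above all the others, and the B6TC and ZR75 arrays overlapped.

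**Figure D2:**
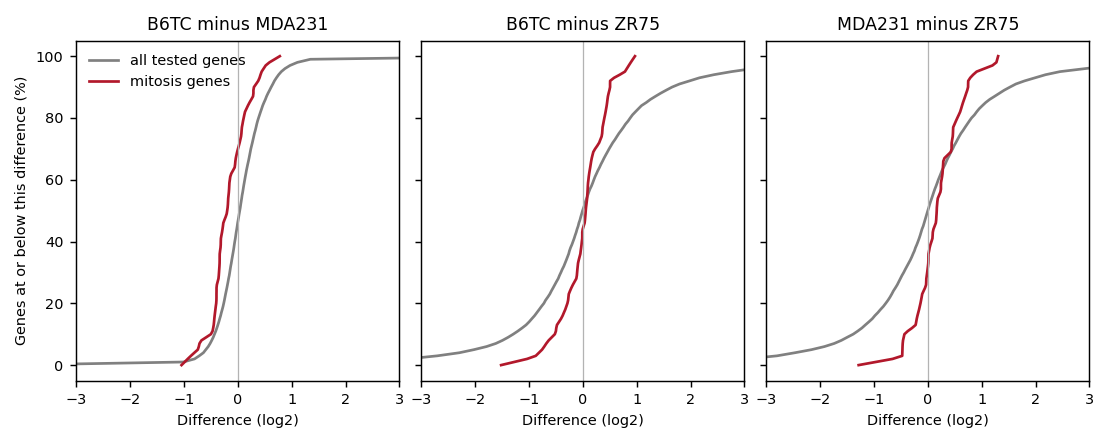
Cumulative distribution of the log2 difference over the 40 mitosis genes (red) and over all 10751 tested genes (grey) in each comparison; the x axis is the log2 difference, limited to the range from -3 to 3, and the y axis is the percent of genes at or below it. The red curve lies left of the grey one between B6TC and MDA231 and is steeper than it in both comparisons with ZR75.

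Over both comparisons of B6TC, and with each gene read by its probe set of highest mean, 10 members were below both parental lines in B6TC, which 14.6% of all tested genes were. They were CCNA2, CCNB2, CDC25B, CDC25C, FOXM1, NEK2, CENPA, ESPL1, KIF23 and PRC1. Another 5 members, CDK1, DLGAP5, CENPE, NUF2 and ECT2, were above both, as were 20.1% of all tested genes. In 8 members B6TC differed from each parental line and lay between them, as it did in 21.8% of all tested genes. These were KIF4A, CENPF, NDC80, BIRC5, TOP2A, PTTG1, KIF20A and ANLN. Another 10 members were called against MDA231 and not against ZR75 (8.58% of all tested genes), 4 against ZR75 and not against MDA231 (28%), and KIF11, TTK and AURKB against neither (7.01%). For CDK1, CCNB1, CDC25C, AURKA, NUSAP1, BUB1, BUB3, MAD2L1, CENPF, AURKB, BIRC5, TOP2A, ECT2 and ANLN at least one further tested probe set gave other calls than the one used.

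**Figure D3:**
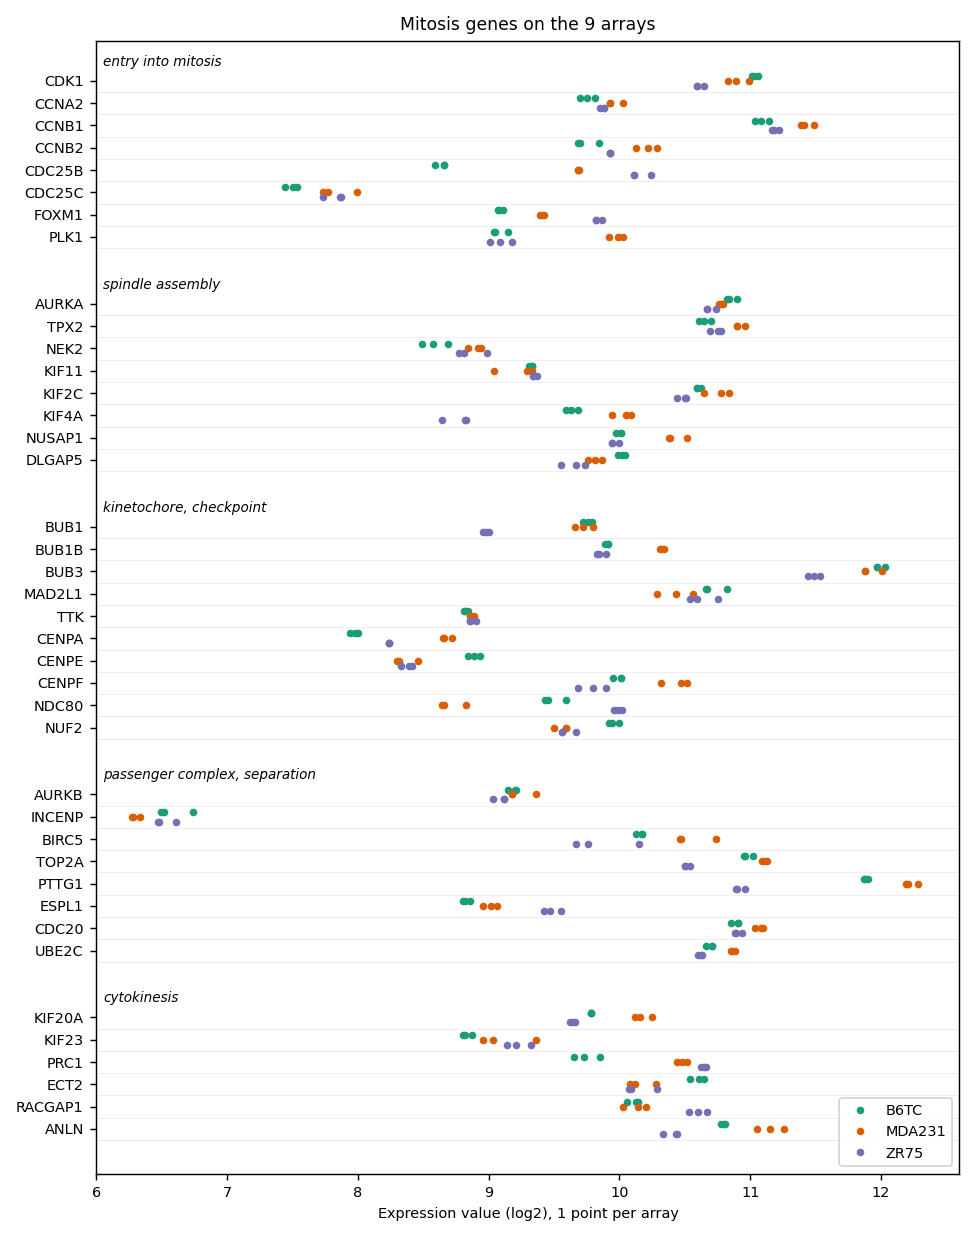
Log2 expression value of the 40 mitosis genes on each of the 9 arrays, grouped by role; each point is an array and each color a cell line. The arrays of a line lie close together, and CDC25B, PRC1 and CENPA show B6TC below all arrays of both other lines, whereas values of different genes come from different probe sets and are not comparable in level.

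Of the 8 genes for entry into mitosis, 7 were lower in B6TC than in MDA231 and CDK1 was higher, with a median log2 difference of -0.34 for the group. Relative to ZR75, 5 were lower and CDK1 was higher, and CCNB1 and PLK1 were not called. For comparison, 28.5% of all tested genes were lower and 36.5% higher than in MDA231, and 41.6% and 42.8% than in ZR75. CDC25B, a phosphatase that activates CDK1, was at 8.66, 8.59 and 8.66 in B6TC, 9.69, 9.68 and 9.68 in MDA231 and 10.24, 10.11 and 10.11 in ZR75. All B6TC arrays lay below those of both parental lines. The log2 difference was -1.04 from MDA231 (2.06-fold, standard error 0.049, limma adjusted p = 1.5e-07) and -1.52 from ZR75 (2.86-fold, adjusted p = 5.8e-10). FOXM1, a transcription factor for late cell cycle genes, was at 9.08, 9.11 and 9.07 in B6TC, 9.39, 9.41 and 9.42 in MDA231 and 9.82, 9.87 and 9.82 in ZR75. Its B6TC arrays were the lowest and its ZR75 arrays the highest, with differences of -0.32 from MDA231 (standard error 0.040, adjusted p = 6.6e-05) and -0.75 from ZR75 (adjusted p = 2.6e-08).

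PLK1, the Polo-like kinase that acts from mitotic entry to cytokinesis, was at 9.05, 9.15 and 9.04 in B6TC, 9.92, 9.99 and 10.03 in MDA231 and 9.09, 9.18 and 9.01 in ZR75. The arrays of B6TC and ZR75 overlapped and those of MDA231 lay above both. PLK1 was 1.86-fold lower in B6TC than in MDA231 (log2 difference -0.90, standard error 0.058, adjusted p = 9.0e-07), and its difference from ZR75 was -0.01 (adjusted p = 0.882). CCNB2, which encodes cyclin B2, was at 9.70, 9.84 and 9.68 in B6TC, 10.29, 10.13 and 10.22 in MDA231 and 9.93 on each ZR75 array. B6TC was below MDA231 by a log2 difference of -0.48 (standard error 0.057, adjusted p = 4.7e-05) and below ZR75 by -0.20 (adjusted p = 0.0085). The identical ZR75 values belong to a small class, since 1.01% of the probe sets had the same value on all arrays of that line. CCNA2, CCNB1 and CDC25C, which encode cyclin A2, cyclin B1 and another CDC25 phosphatase, were below MDA231 by -0.21, -0.35 and -0.34. A further probe set of each gave -0.68, -0.06 (adjusted p = 0.39) and -0.69 in this comparison, and for CCNB1 and CDC25C it gave 0.41 (adjusted p = 4.5e-05) and 0.12 (adjusted p = 0.144) against ZR75, where the probe sets used gave -0.10 and -0.33.

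CDK1, the kinase that these regulators control, was read by 3 tested probe sets that were called in opposite directions. The probe set with the highest mean was at 11.01, 11.06 and 11.03 in B6TC, 10.99, 10.89 and 10.83 in MDA231 and 10.59, 10.59 and 10.65 in ZR75, and its difference from MDA231 was 0.13 (standard error 0.050, adjusted p = 0.0364). The other probe sets gave -0.28 and -0.23 in the same comparison, both called. Against ZR75 the 3 probe sets gave 0.42, 0.15 and 0.13, all called higher in B6TC. The direction of CDK1 relative to MDA231 therefore depended on the probe set, and that relative to ZR75 did not.

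**Figure D4:**
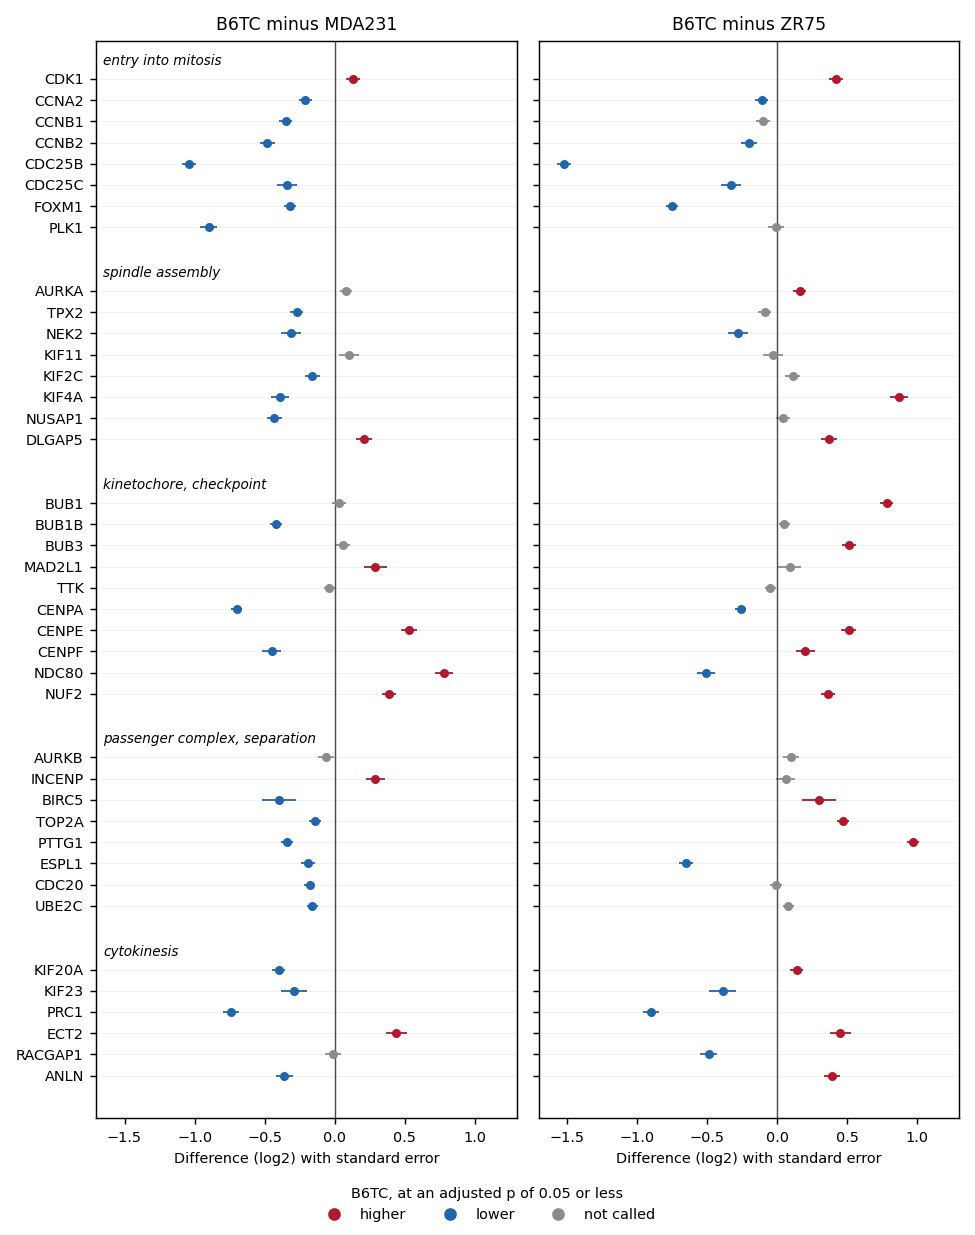
Log2 difference of each mitosis gene between B6TC and MDA231 (left) and between B6TC and ZR75 (right), with the limma standard error as bars; red points are higher in B6TC, blue points lower and grey points not called. Blue points outnumber red ones 25 to 8 on the left, whereas the right panel holds 12 and 15.

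Of the 8 genes for spindle assembly, 5 were lower in B6TC than in MDA231 and DLGAP5 was higher. Relative to ZR75, AURKA, KIF4A and DLGAP5 were higher and NEK2 was lower. Among all tested genes, 28.5% were lower and 36.5% higher than in MDA231, and 41.6% were lower and 42.8% higher than in ZR75. KIF4A, a kinesin that acts on chromosome arms and the central spindle, was at 9.68, 9.63 and 9.59 in B6TC, 9.94, 10.09 and 10.05 in MDA231 and 8.82, 8.83 and 8.64 in ZR75. The 3 lines did not overlap and B6TC lay between its parental lines. The difference was -0.39 from MDA231 (standard error 0.064, adjusted p = 4.0e-04), 0.87 from ZR75 (adjusted p = 3.8e-07) and 1.26 between the parental lines (2.4-fold, adjusted p = 1.8e-08). On a scale from 0 at MDA231 to 1 at ZR75, B6TC was at 0.312.

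NUSAP1, a protein that bundles spindle microtubules, was at 9.97, 10.01 and 10.01 in B6TC, 10.52, 10.38 and 10.39 in MDA231 and 9.94, 10.00 and 9.94 in ZR75. B6TC and ZR75 overlapped, and B6TC was below MDA231 by a log2 difference of -0.43 (standard error 0.050, adjusted p = 3.8e-05). NEK2, a kinase that separates the centrosomes, was at 8.57, 8.69 and 8.49 in B6TC, 8.94, 8.84 and 8.92 in MDA231 and 8.81, 8.77 and 8.99 in ZR75. All its B6TC arrays lay below the others, by -0.31 (standard error 0.072, adjusted p = 0.00324) and -0.28 (adjusted p = 0.0046). Further probe sets of NUSAP1 and NEK2 gave -0.62 and -0.99 against MDA231 and -0.11 and -0.33 against ZR75, all called lower. DLGAP5, which stabilizes kinetochore fibers, was the highest in B6TC, at 10.02, 10.04 and 9.99, against 9.81, 9.76 and 9.87 in MDA231 and 9.55, 9.74 and 9.67 in ZR75. It was above MDA231 by 0.21 (standard error 0.056, adjusted p = 0.00836) and above ZR75 by 0.37 (adjusted p = 1.2e-04).

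AURKA, the centrosomal Aurora kinase, was called in opposite directions against ZR75 by its 2 tested probe sets. The probe set with the highest mean was at 10.84, 10.90 and 10.82 in B6TC, 10.79, 10.76 and 10.78 in MDA231 and 10.74, 10.67 and 10.67 in ZR75, a difference of 0.16 from ZR75 (standard error 0.044, adjusted p = 0.00574). The other, at 10.21, 10.21 and 10.17 in B6TC and 10.35, 10.42 and 10.33 in ZR75, gave -0.17 (standard error 0.045, adjusted p = 0.00545). TPX2, which activates AURKA on the spindle, and KIF2C, a microtubule-depolymerizing kinesin, were lower in B6TC than in MDA231 by -0.27 and -0.16, and a further probe set of KIF2C gave -0.53. KIF11, the kinesin that pushes the spindle poles apart, differed from MDA231 by 0.10 (adjusted p = 0.221) and from ZR75 by -0.03 (adjusted p = 0.716).

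The 10 genes of the kinetochore and the checkpoint moved in both directions. In B6TC, MAD2L1, CENPE, NDC80 and NUF2 were higher than in MDA231, BUB1B, CENPA and CENPF were lower, and BUB1, BUB3 and TTK were not called. The group's median difference was 0.05. Relative to ZR75, BUB1, BUB3, CENPE, CENPF and NUF2 were higher and CENPA and NDC80 were lower. The shares of all tested genes were 28.5% lower and 36.5% higher against MDA231, and 41.6% lower and 42.8% higher against ZR75. NDC80, the microtubule-binding subunit of the outer kinetochore, was at 9.43, 9.59 and 9.45 in B6TC, 8.83, 8.64 and 8.66 in MDA231 and 9.96, 10.02 and 9.99 in ZR75. It was the reverse of KIF4A in order, with MDA231 the lowest. NDC80 was above MDA231 by 0.78 (1.72-fold, standard error 0.064, adjusted p = 4.0e-06) and below ZR75 by a log2 difference of -0.51 (adjusted p = 3.0e-05), and the parental lines differed by -1.29 (2.44-fold). B6TC was at 0.607 on the scale from MDA231 to ZR75.

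NUF2, the partner of NDC80 in the same complex, did not follow this order. Its difference from MDA231 was 0.39 (standard error 0.050, adjusted p = 7.5e-05) and from ZR75 0.36 (adjusted p = 6.5e-05), and the parental lines differed by -0.03 (adjusted p = 0.538). CENPE, a kinesin that carries chromosomes to the spindle equator, had the same pattern, at 0.53 and 0.51 above the parental lines. CENPA, the histone H3 variant that marks centromeres, was at 7.98, 8.0 and 7.94 in B6TC, 8.66, 8.72 and 8.65 in MDA231 and 8.24 on each ZR75 array. Its B6TC arrays were the lowest, with differences of -0.70 from MDA231 (1.63-fold, standard error 0.041, adjusted p = 5.4e-07) and -0.26 from ZR75 (adjusted p = 1.6e-04).

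BUB1, a checkpoint kinase, was at 9.76, 9.72 and 9.79 in B6TC, 9.80, 9.66 and 9.72 in MDA231 and 8.96, 9.0 and 8.98 in ZR75. B6TC and MDA231 overlapped (difference 0.03, standard error 0.047, adjusted p = 0.579), and B6TC was 1.71-fold above ZR75 (log2 difference 0.78, adjusted p = 7.3e-08). A further BUB1 probe set was at 8.57, 8.67 and 8.57 in B6TC, 9.30, 9.21 and 9.23 in MDA231 and 8.14, 8.30 and 8.17 in ZR75. On it B6TC lay between the parental lines, at -0.64 from MDA231 (standard error 0.055, adjusted p = 5.0e-06) and 0.40 from ZR75 (adjusted p = 5.5e-05). CENPF, a large protein of the outer kinetochore, was at 10.01, 9.95 and 10.01 in B6TC, 10.52, 10.32 and 10.47 in MDA231 and 9.80, 9.90 and 9.68 in ZR75. It was below MDA231 by -0.45 (standard error 0.067, adjusted p = 2.3e-04) and above ZR75 by 0.20 (adjusted p = 0.0192). The second of these calls was lost when B6TC array 1, B6TC array 3 or ZR75 array 3 was left out, with adjusted p-values of 0.0538, 0.0533 and 0.076. A further CENPF probe set did not show the difference from MDA231 (0.03, standard error 0.11, adjusted p = 0.809) and gave 0.85 against ZR75 (adjusted p = 3.8e-05). BUB1B, the checkpoint protein BubR1, was below MDA231 by -0.42 and differed from ZR75 by 0.05 (adjusted p = 0.287).

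BUB3 and MAD2L1, which also belong to the checkpoint, had probe sets that disagreed. The BUB3 probe set with the highest mean was at 11.97, 11.97 and 12.03 in B6TC, 12.01, 11.88 and 11.88 in MDA231 and 11.53, 11.49 and 11.44 in ZR75, a difference of 0.06 from MDA231 (adjusted p = 0.292) and of 0.51 from ZR75 (standard error 0.051, adjusted p = 4.9e-06). Its further probe sets gave 0.16, -0.02 and -0.45 against MDA231, of which the first was called higher and the last lower, and 0.48, 0.95 and 0.63 against ZR75, all called higher. The MAD2L1 probe set with the highest mean was at 10.67, 10.82 and 10.66 in B6TC, 10.56, 10.43 and 10.29 in MDA231 and 10.54, 10.59 and 10.75 in ZR75. It was above MDA231 by 0.29 (standard error 0.082, adjusted p = 0.0107), where another probe set gave -0.39 (adjusted p = 1.2e-04) and the last -0.05 (adjusted p = 0.585).

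Of the 8 genes of the chromosomal passenger complex and chromatid separation, 6 were lower in B6TC than in MDA231, INCENP was higher and AURKB was not called. Relative to ZR75, BIRC5, TOP2A and PTTG1 were higher and ESPL1 was lower. Beside these counts, 28.5% of all tested genes were lower and 36.5% higher than in MDA231, and 41.6% and 42.8% than in ZR75. PTTG1, the securin that restrains separase, was at 11.90, 11.87 and 11.88 in B6TC, 12.21, 12.28 and 12.19 in MDA231 and 10.96, 10.89 and 10.90 in ZR75. The 3 lines did not overlap, and B6TC was below MDA231 by -0.34 (standard error 0.044, adjusted p = 8.2e-05) and 1.96-fold above ZR75 (log2 difference 0.97, adjusted p = 7.2e-09). B6TC was at 0.258 on the scale from MDA231 to ZR75. The probe sets used for PTTG1, FOXM1, BUB3 and CENPA carry the suffix x_at, which marks probes that can bind other transcripts as well. ESPL1, the separase that cuts cohesin, was at 8.86, 8.82 and 8.80 in B6TC, 9.02, 9.06 and 8.96 in MDA231 and 9.47, 9.55 and 9.42 in ZR75. Its order was opposite to that of its inhibitor PTTG1 between the parental lines, and B6TC was below both, by -0.19 (standard error 0.050, adjusted p = 0.00768) and -0.65 (adjusted p = 4.7e-07).

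TOP2A, the topoisomerase that untangles sister chromatids, was at 10.95, 11.02 and 10.96 in B6TC, 11.09, 11.13 and 11.11 in MDA231 and 10.50, 10.54 and 10.50 in ZR75. It was above ZR75 by 0.47 (standard error 0.042, adjusted p = 1.7e-06). Its difference of -0.14 from MDA231 (adjusted p = 0.016) was not called with the arrays centered on their medians (-0.10, adjusted p = 0.0929), with the mean of its probe sets (0.00, adjusted p = 0.959), or without B6TC array 1 or 3 (adjusted p = 0.0621 and 0.0503). A further TOP2A probe set gave 0.13 against MDA231 (adjusted p = 0.0647) and 0.51 against ZR75, and a further ESPL1 probe set gave -0.13 and -0.64. INCENP, the scaffold of the passenger complex, was above MDA231 by 0.29 (adjusted p = 0.00445). Its means of 6.58 in B6TC and 6.29 in MDA231 were near the filter limit of 6. Its standard deviation between the B6TC arrays, 0.14, was the largest of the members in that line. CDC20, the checkpoint's target that activates the anaphase-promoting complex, and UBE2C, a ubiquitin-conjugating enzyme that works with that complex, were below MDA231 by -0.18 and -0.16.

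BIRC5, the survivin subunit of the passenger complex, was read by 4 tested probe sets. The probe set with the highest mean was at 10.17, 10.13 and 10.17 in B6TC, 10.46, 10.74 and 10.47 in MDA231 and 9.76, 10.15 and 9.67 in ZR75. Array 2 was the highest in both parental lines, and the ZR75 array 2 overlapped B6TC. The difference was -0.40 from MDA231 (standard error 0.12, adjusted p = 0.0139) and 0.30 from ZR75 (adjusted p = 0.0379). Without MDA231 array 2 the first was not called (-0.31, adjusted p = 0.0571). The second was not called when any 1 of the B6TC arrays, ZR75 array 1 or ZR75 array 3 was left out, with adjusted p-values of 0.0655 to 0.145. Other probe sets gave -0.13 and -0.75 against MDA231 and 0.56 and 0.30 against ZR75. The remaining one was at 6.39, 6.52 and 6.50 in B6TC, 5.85, 5.79 and 5.56 in MDA231 and 8.19, 8.27 and 8.18 in ZR75, which reversed both directions, with differences of 0.73 and -1.75, and gave -2.48 between the parental lines. Which transcript this probe set binds was not examined.

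AURKB, the kinase of the passenger complex, was at 9.15, 9.20 and 9.21 in B6TC, 9.36, 9.18 and 9.18 in MDA231 and 9.12, 9.12 and 9.03 in ZR75. Its differences were -0.06 from MDA231 (standard error 0.058, adjusted p = 0.426), 0.10 from ZR75 (adjusted p = 0.146) and 0.15 between the parental lines (adjusted p = 0.0325). A further probe set was at 6.30, 6.52 and 6.42 in B6TC, 5.74, 5.88 and 5.87 in MDA231 and 6.13, 6.21 and 6.15 in ZR75. It was above both parental lines in B6TC, by 0.59 and 0.25, and gave -0.33 between the parental lines.

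Of the 6 genes for cytokinesis, KIF20A, KIF23, PRC1 and ANLN were lower in B6TC than in MDA231, ECT2 was higher and RACGAP1 was not called. Relative to ZR75, KIF20A, ECT2 and ANLN were higher and the other 3 were lower. Over all tested genes the shares lower and higher were 28.5% and 36.5% against MDA231, and 41.6% and 42.8% against ZR75. PRC1, which bundles the microtubules of the central spindle, was at 9.65, 9.73 and 9.85 in B6TC, 10.52, 10.44 and 10.48 in MDA231 and 10.65, 10.62 and 10.66 in ZR75. All B6TC arrays were below those of both parental lines, by -0.74 (1.66-fold, standard error 0.054, adjusted p = 2.0e-06) and -0.90 (1.86-fold, adjusted p = 7.2e-08). KIF4A, which PRC1 recruits to the central spindle, was between the parental lines, as described above. ANLN, the anillin of the contractile ring, was at 10.80, 10.81 and 10.78 in B6TC, 11.26, 11.05 and 11.15 in MDA231 and 10.43, 10.33 and 10.44 in ZR75. B6TC lay between the lines, at -0.36 from MDA231 (standard error 0.059, adjusted p = 4.2e-04) and 0.39 from ZR75 (adjusted p = 1.0e-04). A further ANLN probe set was at 9.46, 9.46 and 9.43 in B6TC, 10.67, 10.42 and 10.37 in MDA231 and 9.33, 9.32 and 9.26 in ZR75, a difference of -1.03 from MDA231 (2.05-fold, standard error 0.071, adjusted p = 1.3e-06) and of 0.15 from ZR75 (adjusted p = 0.0742).

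KIF20A, the kinesin that moves the passenger complex to the midzone, was at 9.78 on each B6TC array, 10.25, 10.12 and 10.16 in MDA231 and 9.62, 9.66 and 9.64 in ZR75. It was below MDA231 by -0.40 (standard error 0.046, adjusted p = 3.7e-05) and above ZR75 by 0.14 (adjusted p = 0.0171). The latter call was lost without ZR75 array 1 (0.13, adjusted p = 0.0533). RACGAP1, a subunit of centralspindlin, was at 10.14, 10.13 and 10.06 in B6TC, 10.20, 10.14 and 10.03 in MDA231 and 10.53, 10.60 and 10.67 in ZR75. B6TC and MDA231 overlapped (difference -0.01, standard error 0.058, adjusted p = 0.896), and both lay below ZR75, B6TC by -0.49 (adjusted p = 1.8e-05). KIF23, the kinesin of the same complex, was below MDA231 by -0.29 (adjusted p = 0.023) and below ZR75 by -0.39 (adjusted p = 0.00313). ECT2, the exchange factor that RACGAP1 binds to activate RhoA, was above both, by 0.44 and 0.45, on the probe set used. Its other tested probe set gave -0.10 against MDA231, with overlapping arrays (adjusted p = 0.125), and 0.28 against ZR75 (adjusted p = 5.2e-04).

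The choice of probe set bore on the comparison with MDA231 more than on that with ZR75. Of the 40 members, 18 had more than 1 tested probe set, with 24 further probe sets in all. Between B6TC and MDA231, 16 of the 24 gave a lower difference than the probe set used for the gene, with a median shift of -0.35. Between B6TC and ZR75 this held for 13 of the 24, with a median shift of -0.04, and between MDA231 and ZR75 for 7, with a median shift of 0.24. Probe sets of the same gene were called in opposite directions for BIRC5, BUB3, CDK1 and MAD2L1 between B6TC and MDA231, for AURKA and BIRC5 between B6TC and ZR75, and for AURKB, BIRC5 and MAD2L1 between the parental lines. The ACTB and GAPDH values given above set MDA231 apart in the same comparisons, and their part in these shifts was not tested.

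**Figure D5:**
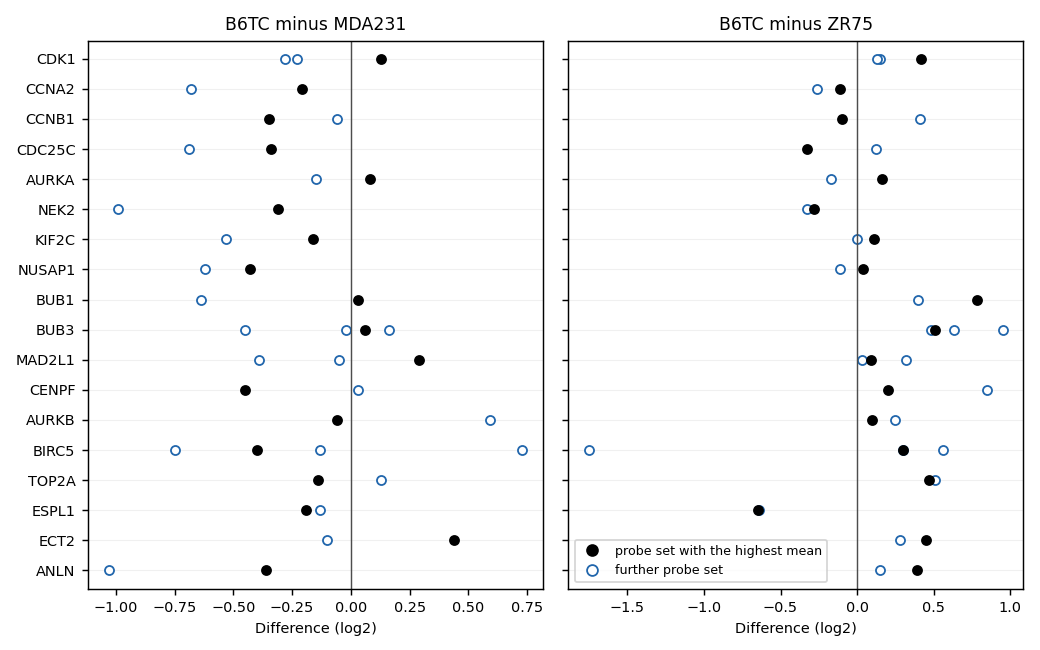
Log2 differences of the 18 mitosis genes with more than 1 tested probe set; filled points are the probe set with the highest mean, which stands for the gene, and open points are its further probe sets. In the left panel, B6TC minus MDA231, 16 of the 24 open points lie left of the filled point of the same gene, and in the right panel, B6TC minus ZR75, 13 do.

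Other genes of mitosis were followed as lists, with 27 genes listed as upstream regulators of the cell cycle among them, MKI67 included. Of 143 genes, 138 were on the array and 135 were tested. Relative to MDA231, 51 were lower in B6TC and 41 were higher, with a median log2 difference of -0.02. Relative to ZR75, 56 were lower and 47 were higher, with a median of -0.06. As shares, 37.8% were lower and 30.4% higher than in MDA231, against 28.5% and 36.5% of all tested genes. Against ZR75 the shares were 41.5% and 34.8%, where those of all tested genes were 41.6% and 42.8%. MKI67, the Ki-67 proliferation marker, fell outside the rule for named genes and was chosen after its values were seen. It was at 9.36, 9.38 and 9.34 in B6TC, 9.69, 9.72 and 9.77 in MDA231 and 9.61, 9.63 and 9.59 in ZR75. Its B6TC arrays were the lowest, by -0.37 (standard error 0.042, adjusted p = 3.1e-05) and -0.25 (adjusted p = 2.5e-04).

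Among 21 tested genes of the anaphase-promoting complex and mitotic exit, 8 were lower and 7 higher in B6TC than in MDA231. Relative to ZR75, 8 were lower and 10 higher. The shares over all tested genes were 28.5% lower and 36.5% higher than in MDA231, and 41.6% lower and 42.8% higher than in ZR75. CDC14B, a phosphatase, was 8.71 in B6TC, 8.60 in MDA231 and 3.19 in ZR75 on average. ENSA and ARPP19, related inhibitors of the phosphatase PP2A-B55 in mitosis, were below ZR75 by -1.84 and -1.47 and below MDA231 by -0.55 and -0.34. Among 21 cohesin and condensin genes, 7 were lower and 6 higher than in MDA231, and 10 were lower and 5 higher than in ZR75. NCAPH2, a condensin II subunit, was below both, by -0.97 and -0.59. PDS5B, a cohesin regulator, was below both as well, by -0.33 and -1.48, and NCAPD3, of condensin II, was between the parental lines at -0.36 and 0.64.

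Among 34 other kinetochore and centromere genes, 13 were lower and 11 higher than in MDA231, and 15 were lower and 13 higher than in ZR75. All tested genes were lower in 28.5% and higher in 36.5% against MDA231, and in 41.6% and 42.8% against ZR75. MAD1L1, the checkpoint partner of MAD2L1, was at -0.79 from MDA231 and 1.56 from ZR75. SKA1 and SKA2, of the same kinetochore complex, moved oppositely, SKA1 at -0.73 and 1.20 and SKA2 at 0.40 and -1.35. Among 33 other spindle, centrosome and cytokinesis genes, 11 were lower and 7 higher than in MDA231, and 14 were lower and 11 higher than in ZR75. HMMR, a spindle-associated protein, was at 0.63 and -0.91, and HAUS6, of the augmin complex, and KIF18B, a kinesin, were above both lines, HAUS6 by 0.33 and 1.06 and KIF18B by 0.36 and 1.00. Among 26 tested genes of the list of upstream regulators, 12 were lower and 10 higher than in MDA231, and 9 were lower and 8 higher than in ZR75. E2F2 and E2F8, of the E2F family, were below ZR75 by -2.92 and -2.66, and CDKN1C, a cyclin-dependent kinase inhibitor, was above it by 3.03.

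The genes of the phases before mitosis were set beside the mitosis genes. Over all tested genes, 28.5% were lower and 36.5% higher in B6TC than in MDA231, and 41.6% were lower and 42.8% higher than in ZR75. Of 45 DNA replication genes, 23 were lower and 10 higher in B6TC than in MDA231, and 28 were lower and 14 higher than in ZR75, with medians of -0.16 and -0.39. Averaged over these genes, the arrays were at 9.12 to 9.13 in B6TC, 9.30 to 9.36 in MDA231 and 9.55 to 9.57 in ZR75. ZR75 was the highest line here, whereas it was not for the mitosis genes, and the difference between the lists was not tested. GINS1, CDT1 and POLA2, which act at the start of DNA replication, were below ZR75 by -2.44, -1.93 and -1.82. Of 7 tested G1 cyclins and kinases, 5 were lower in B6TC than in MDA231. Relative to ZR75, 4 were lower and 3 were higher, among them CDK6, a partner of D cyclins, by 3.55 and CCND3, cyclin D3, by 0.99, while CCNE2, cyclin E2, was at -1.01.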

How the data were processed

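Total RNA of each line was labeled and hybridized to 3 arrays, 9 in all. The authors deposited log2 values, for which their processing notes name RMA in Affymetrix Expression Console and the methods GC-RMA; versions are not given in the sources used here. Normalization could not be repeated from these values, and the arrays give no counts, so their number limits the precision. Probe sets at 6 or more on at least 3 arrays were tested (21095 of 54613; 62 control probe sets were left out) with limma 3.58.1 (R 4.3.3), fitting all 9 arrays with a mean for each line, and Benjamini-Hochberg adjustment over all tested probe sets within each comparison. Symbols, from the platform annotation, were updated by gene identifier (GRCh38.p14); 41091 probe sets had 1 symbol, 1801 several and 11721 none, and those with several were not used. A gene was read by its probe set of highest mean. Members and lists were chosen with earlier results of these data known. Array values are given for up to 4 members per role, those with the largest called difference, and for members with probe sets called in opposite directions; up to 3 genes per list were named likewise. The procedure was tested on simulated data. The alternatives were other filters, regression, variances, normalization, arrays, probe sets, a replicate block and leaving out each array.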

Additional observations from a re-analysis of the deposited data

How the results depend on the processing

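The numbers of mitosis genes called higher or lower kept within 1.5 times the values given under several alternatives. These were no filter, a filter that also asks for variation, robust regression, and robust and trended variances. The others were recentering, a second quantile normalization, fits to the compared lines alone and averaging a gene's probe sets. Shares of all tested genes under the alternatives of this section are not given. The counts therefore show how the calls of members moved, and not how they stand against all genes. Leaving out probe sets ending in x_at and s_at left 26 members, of which 15 were lower in B6TC than in MDA231 (median -0.15), 4 lower than in ZR75 (median 0.09) and 3 lower in MDA231 than in ZR75 (median 0.28), and 3 were below both parental lines; fewer members were tested there. Counting every tested probe set was chosen after seeing the data. It gave 40 of 64 lower than in MDA231 (62.5%), 29 higher than in ZR75 (45.3%) and 42 higher in MDA231 than in ZR75 (65.6%). The medians of the last pair were 0.11 and 0.34. Among all tested genes, each read by 1 probe set, these shares were 28.5%, 42.8% and 42.5%. Shares over all tested probe sets are not given here. The median against MDA231 was -0.16 with centered arrays, -0.34 with the filter that also asks for variation (33 members) and -0.22 after quantile normalization. Against ZR75 it was 0.08 with centered arrays, 0.02 with averaged probe sets and 0.03 after quantile normalization, and between the parental lines 0.42 under that filter and 0.22 with averaged probe sets.

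Leaving out 1 array at a time gave 22 to 25 members lower and 7 to 8 higher than in MDA231 (medians -0.22 to -0.18), 11 to 13 lower and 13 to 16 higher than in ZR75 (medians 0.04 to 0.06), 6 to 10 lower and 21 to 22 higher in MDA231 than in ZR75 (medians 0.16 to 0.20), 4 to 5 above both and 8 to 11 below both parental lines. Single differences were refitted for up to 4 members per role, those with the largest called difference. Only their 55 called differences were taken, so the selection favored calls that hold. CDK1, AURKA, BUB3, MAD2L1 and AURKB, whose probe sets were called in opposite directions, were not among these members. Of 1025 refitted values, 995 kept their direction and call, 28 kept the direction and lost the call, and 2 reversed. Both reversals were of BIRC5 with the mean of its probe sets, at -0.15 against ZR75 (limma adjusted p = 0.0264) and -0.01 between the parental lines (adjusted p = 0.864); the cause was not tested. Calls between the parental lines were lost for DLGAP5 without MDA231 array 3 (0.13, adjusted p = 0.0733), ZR75 array 1 (0.11, adjusted p = 0.0827) or the filter, and for PRC1 without MDA231 array 2 (-0.15, adjusted p = 0.0555), without the filter or after quantile normalization. Without a filter the calls of CENPF, BIRC5 and KIF20A against ZR75 and of TOP2A against MDA231 were lost as well, as were those of BIRC5 and KIF20A against ZR75 after quantile normalization and that of BIRC5 with robust and trended variances.

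Replicate numbers are shared by the lines. Deviations of same-numbered arrays correlated by -0.102 to 0.176, and those of differently numbered arrays by -0.21 to 0.225. These values show no pairing by number, but 3 arrays per line are too few to exclude one. With the replicate number as a block, 25 members were lower and 7 higher than in MDA231, 11 lower and 15 higher than in ZR75, and 7 lower and 22 higher in MDA231 than in ZR75, with medians of -0.20, 0.05 and 0.16; 4 were above and 9 below both parental lines.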
